A study of Mus musculus with 10 samples.

Results

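Lpl, Itm2a, Arxes2 and Cadm1 are 4 of the 31053 genes counted in these libraries of mouse intestinal epithelium. They were picked from the measured values, as genes near absent from organoids in conventional medium (ENR-organoids) and strongly raised in organoids of the regenerative culture (Hyper-organoids). Differences between those groups are therefore given as a description, with no test. The values matched that description for Lpl, Itm2a and Arxes2. Cadm1 went against it, since at least 1 molecule of it was counted in 14.6%, 15.1% and 31.3% of the cells of the 3 ENR libraries.

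The measurement was droplet-based single-cell RNA sequencing from the 3′ end of transcripts, with UMIs (unique molecular identifiers, 1 per captured RNA molecule). ENR-organoids were measured in 3 libraries, Hyper-organoids in 3 and -VE-organoids in 2, and colonic crypts in 1 library from normal mice and 1 from mice given dextran sulfate sodium (DSS), an agent that injures the colonic epithelium. All organoids came from crypts of the proximal small intestine and grew in Matrigel, and the labels give neither strain nor age for a library. ENR medium held EGF at 50 ng/mL, Noggin at 100 ng/mL and R-Spondin 1 at 500 ng/mL. Hyper medium held the small molecules LDN193189 (0.2 µM), GSK-3 Inhibitor XV (0.1 µM), Pexmetinib (1 µM), VPA (500 µM) and EPZ6438 (2 µM), with EGF at 50 ng/mL, 10% R-Spondin 1 conditioned medium and FGF2 at 20 ng/mL. The -VE medium was the Hyper medium without VPA and EPZ6438. ENR libraries 1, 2 and 3 were taken at passages 2, 7 and 3, Hyper libraries 1, 2 and 3 at passages 1, 6 and 3, and -VE libraries 1 and 2 at passages 1 and 6. Hyper and -VE libraries 1 and 2 were started from ENR-organoids, and ENR and Hyper library 3 from primary crypts. Nothing in the labels says that the libraries of a group came from separate mice, so p-values measure the spread between these libraries, which may be technical.

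VPA (valproic acid) inhibits histone deacetylases, which remove acetyl groups from chromatin. EPZ6438 inhibits EZH2, the enzyme of the Polycomb repressive complex that methylates histone H3 at lysine 27, a mark of silent genes. Lpl encodes lipoprotein lipase, a secreted enzyme that splits the triglycerides of circulating lipoproteins and is best known from fat, muscle and heart. Itm2a encodes a membrane protein with a BRICHOS domain, known from developing cartilage, muscle and T cells. Arxes2, like its neighbour Arxes1, is a retrogene on the X chromosome derived from Spcs3, a subunit of the signal peptidase, and was described in adipocytes. Cadm1 encodes an immunoglobulin-like molecule of cell-cell adhesion.

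The authors kept 1983 to 4293 cells in each organoid library, with 89124015 to 170019527 UMIs and a median of 38174 to 50652 UMIs per cell. The colonic libraries were shallower, with 1132 and 1933 cells and medians of 18374 and 16051 UMIs. Levels are given as CPM, the UMIs of a gene summed over the kept cells of a library and scaled to a library total of 1000000 UMIs. Epithelial markers (Epcam, Krt8, Krt18, Cdh1, Vil1) were at 3499 to 4316 CPM in sum in every organoid library. Markers of leukocytes summed to 0.73 to 0.99 CPM in ENR, 0.89 to 0.95 in -VE and 1.06 to 2.19 in Hyper libraries, and Ptprc, the pan-leukocyte gene, was at 0 in all but ENR library 2. Adipocyte markers summed to 3.09 to 4.46, 2.96 to 3.75 and 3.55 to 5.45 CPM in the same order, with Lep at 0 in every organoid library. Fibroblast and smooth muscle markers summed to 0.079 to 0.113, 0.082 to 0.107 and 0.598 to 0.866 CPM, and the part of this difference in the results on the 4 genes was not tested. Endothelial markers summed to 3.02 to 4.88, 10.6 to 11.3 and 9.38 to 16.9 CPM, with Cdh5, the endothelial cadherin, at 0 in all but Hyper library 1. Ptprc, Lep and Cdh5 are each 1 gene of a list. Where they were at 0, the other genes of the list made up the sum. The part of the endothelial difference in the results on the 4 genes was not tested either. The leukocyte, adipocyte, fibroblast and endothelial sums lay below the level of each of the 4 genes in every Hyper library. The endothelial sum was the highest of these.

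Lpl was at 0.072, 0.0407 and 0.0112 CPM in ENR libraries 1, 2 and 3, which is 7, 5 and 1 UMIs. The -VE libraries held 0.246 and 0.112 CPM (30 and 19 UMIs). In the Hyper libraries Lpl stood at 24.85, 23.2 and 27.41 CPM (3442, 3298 and 2474 UMIs), and the mean was 25.15 ± 2.12 (SD, n = 3). The groups stood in the order ENR, -VE, Hyper with no overlap, as they did for 11.4% of the 16037 genes tested, and the lowest Hyper library lay far above the highest -VE library.

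Itm2a was at 0.0206, 0.0326 and 0.0224 CPM in the ENR libraries, on 2, 4 and 2 UMIs. It was at 0.107 and 0.0177 CPM in the -VE libraries, on 13 and 3 UMIs, so that the second -VE library lay below every ENR library. The Hyper libraries held 26.59, 25.91 and 19.97 CPM, with a mean of 24.16 ± 3.64 (SD, n = 3).

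Arxes2 was at 0.0309, 0.0244 and 0.0112 CPM in ENR-organoids (3, 3 and 1 UMIs) and at 0.131 and 0.1235 CPM in -VE-organoids (16 and 21 UMIs). Hyper-organoids held 18.44, 26.79 and 25.16 CPM, with a mean of 23.46 ± 4.43 (SD, n = 3). As with Lpl, the groups stood in the order ENR, -VE, Hyper with no overlap.

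Cadm1 was at 4.66, 4.61 and 11.67 CPM in ENR-organoids and at 10.93 and 11.45 CPM in -VE-organoids. ENR library 3 held more Cadm1 than both -VE libraries. The Hyper libraries held 67.04, 71.5 and 73.76 CPM (mean 70.76 ± 3.42, SD, n = 3). In these organoids Cadm1 was thus counted in all media, with a higher level in Hyper medium. Each of the other 3 genes had at most 30 UMIs in any library outside it. Barcodes that the authors left out held Cadm1 at 2.23, 1.85 and 3.75 CPM in ENR and 3.46 and 4.89 CPM in -VE libraries. These levels lay below those of the kept cells of the same library.

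**Figure D1:**
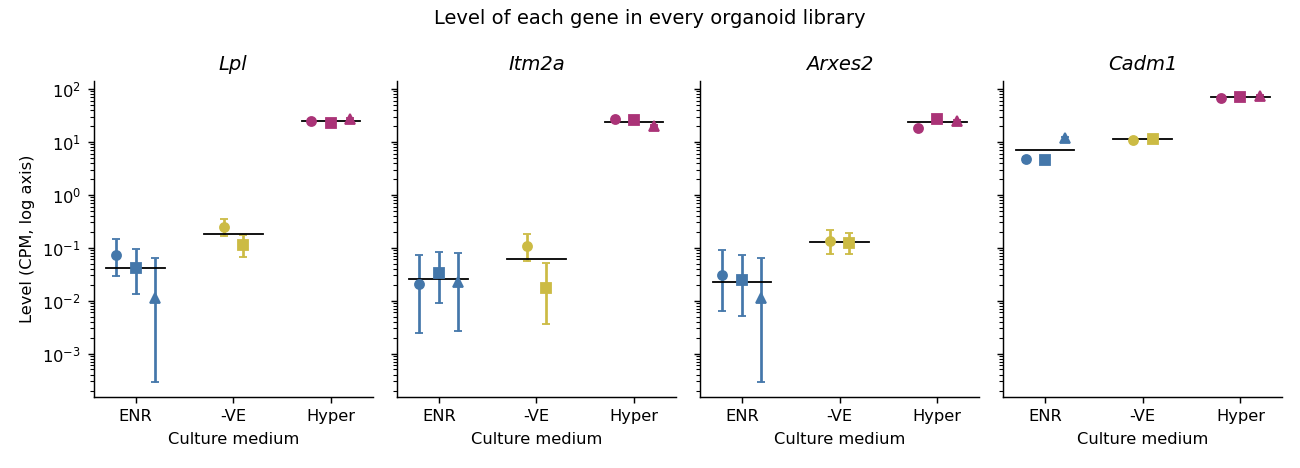
Level of Lpl, Itm2a, Arxes2 and Cadm1 in each of the 8 organoid libraries, in CPM on a log axis, with 1 point per library (circle, square and triangle for libraries 1, 2 and 3), its 95% exact counting interval and a line at the group mean. Lpl, Itm2a and Arxes2 sit under 0.3 CPM in every ENR and -VE library and between 18 and 28 CPM in every Hyper library, while Cadm1 rises from a level of 4.61 to 11.67 CPM.

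As a description of the contrast the genes were chosen on, the fitted log2 fold change of Hyper- over ENR-organoids was 9.07 for Lpl, 9.69 for Itm2a, 9.83 for Arxes2 and 3.21 for Cadm1, with SEs of 0.34, 0.39, 0.27 and 0.36. In this comparison 18.2% of 16037 genes passed the same thresholds upward. To see how many other genes behaved this way, genes under 0.1 CPM in every ENR library and over 10 CPM in every Hyper library were counted, with limits set after the values were seen. There were 8 among all 31053 genes. They were Bex4 (mean Hyper level 242.8 CPM), Lpl, Itm2a, Zfhx4 (23.5), Arxes2, Gja1 (21.1), Gpx8 (18.4) and Dusp22 (12). The choice of the 4 genes thus took in 3 of these 8.

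Which part of the difference goes with VPA and EPZ6438 was addressed by the comparison of Hyper- with -VE-organoids, media that differ only in these compounds. Among all genes tested, 16.1% were called higher in Hyper-organoids and 2.51% lower (edgeR quasi-likelihood test, where a call needs a change of at least 2-fold and an adjusted p under 0.05). The 4 genes were chosen on the same Hyper libraries, so their own differences are given as a description, with no test. The fitted log2 fold change was 7.38 for Arxes2 (SE 0.25), 8.59 for Itm2a (SE 0.42), 7.05 for Lpl (SE 0.34) and 2.52 for Cadm1 (SE 0.40). Itm2a was too low outside Hyper medium to pass the filter on low counts there and passed it only through the Hyper libraries. For each of the 4 genes every Hyper library lay above every -VE library, which was so for 43.8% of all genes tested.

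Pooled over libraries, the ratio of the Hyper to the -VE level was 148 for Lpl, 451 for Itm2a, 184 for Arxes2 and 6.27 for Cadm1. Intervals on such ratios cover counting error only. The 95% exact interval ran from 112 to 200.1 for Lpl, from 277 to 789.1 for Itm2a and from 133 to 260.9 for Arxes2. The Itm2a value rests on 13 and 3 UMIs in the -VE libraries, and its log2 fold change was 10.22 without -VE library 1 and 7.68 without -VE library 2. For Lpl these values were 7.68 and 6.54.

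The comparison of -VE- with ENR-organoids holds the other changes of medium, without VPA and EPZ6438. The ENR libraries also entered the choice of the genes, so these values too are a description, with no test. Arxes2 had a fitted log2 fold change of 2.45 (SE 0.44), and its pooled ratio was 5.6, with a 95% exact counting interval of 2.46 to 14.9. The estimate for Lpl was 2.02 (SE 0.51), on a pooled ratio of 3.99 (interval 2.13 to 8.03). For Itm2a it was 1.1 (SE 0.77), and the pooled ratio of 2.12 had an interval of 0.856 to 5.72, which includes no difference. The Itm2a estimate turned to −0.52 without -VE library 1 and to −0.74 with thinned cells. That of Arxes2 fell to 1.19 with thinned cells. The estimate for Cadm1 was 0.69 (SE 0.37), and it was 1.30 without ENR library 3.

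Class shares differ between media, so the comparison was repeated within the cells that the authors annotated as stem cells (SC). The paper places those of Hyper- and ENR-organoids in separate clusters, so the class is not matched between media. Hyper stem cells held 25.17, 21.17 and 23.04 CPM of Lpl, against 0 UMIs in all 3 ENR libraries. With 322, 317 and 229 ENR stem cells, a count of 0 allows shares of cells with a UMI of up to 0.932%, 0.946% and 1.31%, which is no limit on cells that express the gene. The ENR values are among those the genes were chosen on. Itm2a held 26.49, 25.21 and 18.16 CPM in Hyper stem cells and Arxes2 held 19.32, 28.16 and 24.81 CPM. Cadm1 held 63.15, 67.4 and 68.69 CPM in Hyper stem cells.

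The difference between Hyper and -VE stem cells is given as a description, with no test. The genes were chosen on the Hyper values, and Lpl, Itm2a and Arxes2 passed the filter on low counts in this class only through the Hyper libraries. The log2 fold changes were 8.12 for Lpl (SE 0.25), 7.66 for Itm2a (SE 0.41), 7.72 for Arxes2 (SE 0.33) and 2.35 for Cadm1 (SE 0.30). That of Itm2a was 9.45 without -VE library 1 and 6.75 without -VE library 2. The pooled -VE stem cells held 5 UMIs of Lpl, 7 of Itm2a and 7 of Arxes2, and the pooled ENR stem cells 0, 2 and 1, too few to compare these media within the class. Over all genes tested in the class, 14.7% were called higher and 1.76% lower in Hyper over -VE, and 0.23% higher in -VE over ENR, from which nothing is read about the 4 genes.

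Within Hyper-organoids, the 4 genes were found in all of the large classes, which are the transit-amplifying (TA), stem, goblet (GC) and enteroendocrine (EE) cells. The classes are clusters of these same cells, so the levels by class are descriptions, with no test. Cadm1 and Itm2a went opposite ways across them.

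Itm2a was highest in enteroendocrine cells, the hormone-secreting class, at 56.1, 51.5 and 52.3 CPM in the 3 Hyper libraries. The ratio of enteroendocrine to stem cells was 2.04 to 2.88. At equal depth, with each cell thinned to 10000 UMIs, Itm2a was counted in 38.5%, 36.0% and 30.8% of enteroendocrine cells and in 21%, 20.5% and 14.3% of stem cells. Unthinned shares are not comparable here, because enteroendocrine cells had fewer UMIs each.

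Cadm1 was lowest in enteroendocrine cells among these 4 classes, at 29.0, 32.9 and 34.4 CPM. It was highest in transit-amplifying cells, the dividing progeny of stem cells, at 73.2, 79.8 and 84.3 CPM. Transit-amplifying cells exceeded stem cells by 1.16 to 1.23 times in all 3 libraries. Among classes of at least 50 cells in a library the same classes led in the other media, with mean levels of 8.87 CPM in transit-amplifying and 8.58 in stem cells against 3.35 in enterocytes (EC) of ENR-organoids. In -VE-organoids they stood at 12.2 and 12.1 CPM against 4.84 in enterocytes. The 25 cells annotated RSC in -VE-organoids held 17.0 CPM (95% exact interval 9.73 to 27.6).

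Arxes2 was also higher in enteroendocrine than in stem cells in 3 of 3 libraries, by 1.22 to 1.87 times. Its enteroendocrine levels were 24.1, 34.3 and 46.5 CPM. Transit-amplifying and stem cells differed little, with ratios of 0.917 to 0.977. Goblet cells, which secrete mucus, ranged from 16.1 to 31.9 CPM.

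Lpl was at 25.7, 36.8 and 39.3 CPM in goblet cells, 1.02 to 1.74 times the stem level. The enteroendocrine level lay below the stem level in Hyper libraries 1 and 3 and above it in library 2. Goblet cells lay above transit-amplifying, stem and enteroendocrine cells in 3 of 3 libraries, and transit-amplifying above stem cells, but in library 1 the goblet, transit-amplifying and stem levels (25.7, 25.3 and 25.2 CPM) were within counting error.

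Enterocytes were the class with the least Lpl. Hyper library 2 was the only one with at least 50 enterocytes, and its 58 cells held 3 UMIs of Lpl, or 1.23 CPM (95% exact interval 0.254 to 3.59), in 3.45% of cells. The median depth of these cells was 42736 UMIs, so that they were not shallow. Itm2a was low there too (10 UMIs, 4.10 CPM), whereas Arxes2 (17.2 CPM) and Cadm1 (17.6 CPM) were each counted in 48.3% of the cells. Over the 86 enterocytes of all 3 Hyper libraries the levels were 1.30 CPM for Lpl (interval 0.423 to 3.04), 2.87 for Itm2a, 14.6 for Arxes2 and 20.8 for Cadm1. Arxes2 was the gene with the smallest gap between enterocytes and the whole library.

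The 45 cells that the authors annotated RSC in Hyper-organoids held 8.19 CPM of Lpl, 22.9 of Itm2a, 18.4 of Arxes2 and 50.8 of Cadm1.

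**Figure D2:**
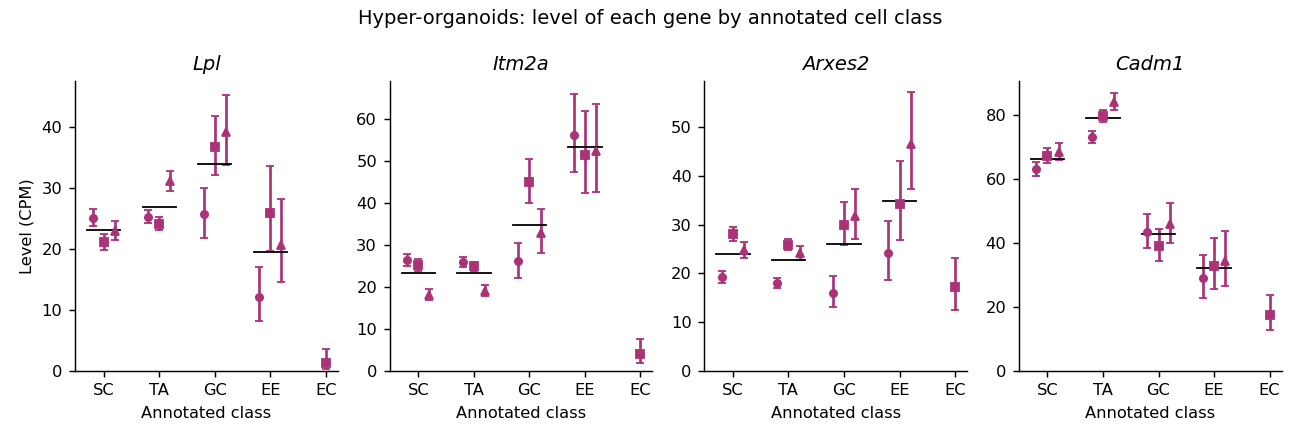
Level of the 4 genes by annotated class within the Hyper libraries, in CPM, with 1 point per library (circle, square and triangle for libraries 1, 2 and 3) for classes of at least 50 cells, 95% exact counting intervals and a line at the mean. Itm2a is highest in enteroendocrine cells (51.5 to 56.1 CPM), Cadm1 in transit-amplifying cells (73.2 to 84.3 CPM), and Lpl is lowest in the enterocytes of library 2 (1.23 CPM).

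The share of positive cells in whole Hyper libraries, at full depth, was 57.4%, 48.3% and 55.7% for Lpl, 56.1%, 54.2% and 46.4% for Itm2a and 52.5%, 60.7% and 62.1% for Arxes2. Cadm1 was counted in 87.6%, 83.9% and 84.1% of cells. In ENR libraries at most 0.228% of the cells held Lpl, 0.154% Itm2a and 0.115% Arxes2. ENR libraries do not show the free RNA of a Hyper library, which was not measured. The barcodes that the authors left out of the Hyper libraries held Lpl in 3.36% to 4.44% and Itm2a in 2.24% to 2.86%. They held Arxes2 in 2.34% to 4.79% and Cadm1 in 9.09% to 10.1%, at medians of 3424 to 5086 UMIs. Whether these barcodes hold cells or free RNA was not tested. In -VE-organoids the shares were 1.00% and 0.396% for Lpl, 0.502% and 0.0699% for Itm2a, 0.544% and 0.443% for Arxes2 and 32.4% and 28.8% for Cadm1.

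Whether the genes marked a subset of cells or were spread over most of them was described at equal depth. With Hyper cells thinned to 10000 UMIs, Arxes2 was counted in 15.5%, 22.9% and 22% of cells. A Poisson spread of the same molecules over all cells would give 16.1%, 23.2% and 22.2%. The variance of its counts over cells was 1.01 to 1.08 times the mean, where a value of 1 is an even spread. Lpl was counted in 21.2%, 19.7% and 22.8% of thinned cells and Itm2a in 21.2%, 22.7% and 16.3%. The variance was 1.06 to 1.21 times the mean for Lpl, 1.16 to 1.30 for Itm2a and 1.08 to 1.15 for Cadm1. Itm2a had the highest of these ratios in 3 of 3 libraries, and Arxes2 the lowest in libraries 2 and 3 but not in library 1. The ratio also depends on the level, which was higher for Cadm1 than for the others. At full depth, 5.55%, 2.64% and 2.52% of the cells of Hyper libraries 1, 2 and 3 held at least 5 UMIs of Itm2a. For Arxes2 the shares were 1.1%, 1.53% and 1.815%. The most in a cell was 19, 13 and 13 UMIs of Itm2a and 8, 9 and 7 of Arxes2.

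The genes were next looked at together in single cells. With every Hyper cell thinned to 10000 UMIs, the share of cells holding both genes of a pair was divided by the product of their single shares, for the 6 pairs in 3 libraries. The 18 ratios ran from 0.819 to 1.21 with a median of 1.02. Itm2a with Arxes2 gave 1.21, 0.997 and 0.926 in libraries 1, 2 and 3. Cadm1 with Lpl (1.01 to 1.08) and Cadm1 with Itm2a (1.02 to 1.07) were above 1 in 3 of 3 libraries, and the other 4 pairs fell on both sides of 1. No test was made across cells of 1 library.

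At full depth the ratios were 1.04 to 1.13, with a median of 1.06. Cells with all 4 genes made up 19.8%, 17.8% and 19.9% of the Hyper libraries, against products of 14.8%, 13.3% and 13.5%. Cells with none of the 4 made up 3.70%, 4.46% and 5.75%. At equal depth none of the 4 was found in 30.2%, 26.7% and 25.6% of cells, against products of 28.9%, 25% and 25.6%. With cells thinned to 5000 UMIs the ratios ran from 0.867 to 1.33 with a median of 1.1, so the median did not move one way with thinning.

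**Figure D3:**
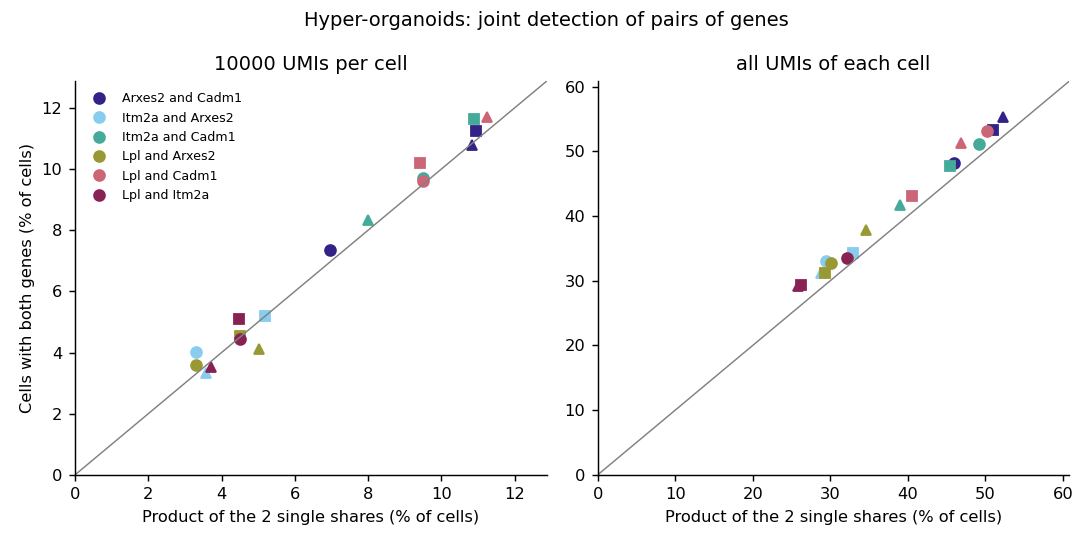
Share of cells holding both genes of a pair (vertical axis, percent) against the product of their single shares (horizontal axis, percent), for the 6 pairs (colours) in Hyper libraries 1, 2 and 3 (circle, square, triangle), with cells thinned to 10000 UMIs on the left and at full depth on the right. On the left the 18 points lie on both sides of the line of equality (ratios 0.819 to 1.21), and on the right all lie above it (1.04 to 1.13).

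Outside Hyper medium the few positive cells were counted by class. Of the 13 Lpl UMIs in ENR-organoids, 6 were in enteroendocrine cells, which made up 2.97% of the 7138 ENR cells. Of the 7 Arxes2 UMIs, 5 were in the same class, and of the 8 Itm2a UMIs it held 0. Goblet cells held 16 of the 49 Lpl UMIs of -VE-organoids while making up 8.26% of the cells. Enteroendocrine cells held 8 of the 37 Arxes2 UMIs there, at 2.42% of the cells, and stem and transit-amplifying cells, which made up 25.7% and 51.7% of the cells, held 15 of the 16 Itm2a UMIs. None of the ENR cells held more than 1 of Lpl, Itm2a and Arxes2, and 1 cell in each -VE library held 2 of them. Any 2 of the organoid libraries shared 0 to 5 barcodes among their kept cells.

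Arxes2 lies at chrX:135993824-135995355 on the plus strand (GRCm38, GENCODE M21) and Arxes1 38.0 kb downstream of it at chrX:136033367-136034946, also on the plus strand. Itm2a lies on the same chromosome at chrX:107397099-107403376 on the minus strand. Lpl lies at chr8:68880491-68907448 and Cadm1 at chr9:47530173-47857637, both on the plus strand. Of 493 genes of the X chromosome tested, 27.4% were called higher in Hyper- than in -VE-organoids, against 16.1% of all genes.

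The 250 bases upstream of the start annotated in RefSeq are shown for Arxes2 and Itm2a, the X-linked genes of the set. They are shown because the media compared differ in inhibitors of chromatin enzymes. The sequences are from RefSeq on GRCm38.p6, 5′ to 3′ on the strand of the gene, with CG dinucleotides in capitals. RefSeq and GENCODE starts differ, and the Itm2a window reaches into the gene span given above. No window was matched for Lpl and Cadm1. Arxes2 is shown from chrX:135993570-135993819 on the plus strand and Itm2a from chrX:107403361-107403610 on the minus strand.
Arxes2: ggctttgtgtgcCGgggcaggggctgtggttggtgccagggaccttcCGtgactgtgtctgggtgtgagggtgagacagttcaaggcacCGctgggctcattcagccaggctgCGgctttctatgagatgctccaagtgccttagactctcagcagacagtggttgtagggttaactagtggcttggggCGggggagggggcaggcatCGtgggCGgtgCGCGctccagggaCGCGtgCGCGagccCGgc
Itm2a: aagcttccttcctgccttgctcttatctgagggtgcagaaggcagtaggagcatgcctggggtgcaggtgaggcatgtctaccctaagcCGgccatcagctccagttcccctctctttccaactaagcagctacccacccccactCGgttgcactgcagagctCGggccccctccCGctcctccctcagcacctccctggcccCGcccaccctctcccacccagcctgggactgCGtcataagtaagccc

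The Arxes2 sequence held 14 CG dinucleotides, more than 70.6% of 32851 promoters, at a GC content of 64.4%. Its 300-base window was identical to that of Arxes1, with 0 differing bases. The Itm2a sequence held 6 CG dinucleotides, which is the median of all promoters, at 62.8% GC. GC boxes (GGGCGG, either strand) were found 2 times upstream of Arxes2 and 1 time upstream of Itm2a, and in 32.7% of all promoters. The letters of the TATA box (TATAAA, in 12.4% of promoters), the CCAAT box (CCAAT, 33.8%), the TEAD motif (GGAATG, 12.6%), the AP-1 motif (TGANTCA, 6.75%) and the DR1 element of PPAR (0.0335%) were not in either window.

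Arxes1 and Arxes2 are near-identical copies over part of their length, so it was asked whether the counting could have mixed them. Of 139 windows of 150 bases along the Arxes2 transcript, 49 occur exactly in Arxes1. In the last 600 bases, where 3′ libraries place their reads, 0 of 46 windows did, and the closest match there had 57 edits. The 3′ ends of Lpl, Itm2a and Cadm1 also shared 0 of 46 windows each with any other annotated gene. How reads placed farther upstream, in stretches that Arxes1 and Arxes2 share, entered the counts was not checked.

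Arxes1 was also near absent outside Hyper medium. It had 1, 0 and 1 UMIs in the ENR libraries, 1 and 1 in the -VE libraries and 6.98, 12.3 and 13.78 CPM in the Hyper libraries. Its pooled Hyper to -VE ratio rests on 3960 against 2 UMIs and was 1560, with a 95% exact counting interval of 431 to 12870. In -VE- against ENR-organoids Arxes1 had 2 against 2 UMIs, and Arxes2 had 37 against 7. Over the Hyper enterocytes Arxes1 was at 2.35 CPM, against 14.6 CPM for Arxes2. Spcs3, the signal peptidase subunit from which the pair derives, did not pass in Hyper over -VE (−0.11, SE 0.07, adjusted p = 0.222). Of the 7 Arxes and signal peptidase genes tested, Arxes2 was chosen on the Hyper values and is left out of the count. Of the other 6, 1 was called higher, Arxes1, against 16.1% of all genes. Arxes1 passed the filter on low counts only through the Hyper libraries, and 70.5% of such genes were called higher. The median log2 fold change of the 6 was −0.06, against 0.01 over all genes.

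Genes along the chromosome around Arxes2 were also higher in Hyper- than in -VE-organoids. Among the 5 nearest tested genes on each side, all within 300 kb, 8 of 10 were called higher, Arxes1 among them. This stands against 16.1% of all genes and 27.4% of those tested on the X chromosome. The X share was not split by the filter on low counts. The median log2 fold change of the 10 was 3.64. Bex4 rose by 11.37 (SE 0.31), from 0.0456 CPM in ENR- and 0.0845 in -VE- to 242.8 CPM in Hyper-organoids. Tceal8 rose by 6.81, from 0.436 CPM in -VE- to 52.0 CPM in Hyper-organoids. Bex2, Tceal5, Tcp11x2 and Bhlhb9 rose by 3.44, 3.15, 3.75 and 3.58, and Gprasp2 by 3.71. Gprasp2 lies within the span of Bhlhb9 on the same strand, so the overlap may affect the counts of both, which was not checked. Of the 8, the 5 genes Arxes1, Bex4, Gprasp2, Tcp11x2 and Tceal5 were tested only because of their Hyper counts, as their counts in the other media alone would not have passed the filter. Of the 1259 genes tested for that reason 70.5% were called higher, so these 5 add little to the count. Of the 5 neighbours that passed without the Hyper libraries 3 were called higher, Bex2, Tceal8 and Bhlhb9, against 11.5% of the 14778 such genes. The neighbours Armcx5 (−0.04) and Gprasp1 (0.12), which also overlap each other, were not called. In -VE over ENR, 2 of the 10 were called higher, Bhlhb9 (1.62) and Tceal8 (1.64), against 1.35% of all genes.

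Fewer neighbours were called around the other 3 genes. Around Itm2a, where the nearest 10 tested genes lie 379 to 1793 kb away, 1 of 10 was called higher, Fndc3c1, which had 0 UMIs in every ENR and -VE library and so passed the filter only through the Hyper libraries. Without -VE library 2 the count was 0. Around Lpl, Lzts1 was called higher (1.58) and Sh2d4a lower (−1.08), and 2 were called higher without -VE library 1, Hyper library 1 or Hyper library 2. Around Cadm1, 4 of 10 were called higher, Gm31557, Gm31816, Nxpe2 and Nxpe4, all of them with a mean under 0.2 CPM in Hyper-organoids and tested only because of their Hyper counts. The count was 1 without Hyper library 1 or -VE library 2 and 2 without Hyper library 3. Of the neighbours that passed without the Hyper libraries, 0 of 6 around Cadm1, 0 of 8 around Itm2a and 1 of 8 around Lpl were called higher. The share over all genes was 16.1%, and 11.5% of those that passed without the Hyper libraries. The distances covered by the 10 neighbours differ between the 4 genes, so that the counts are not like for like.

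**Figure D4:**
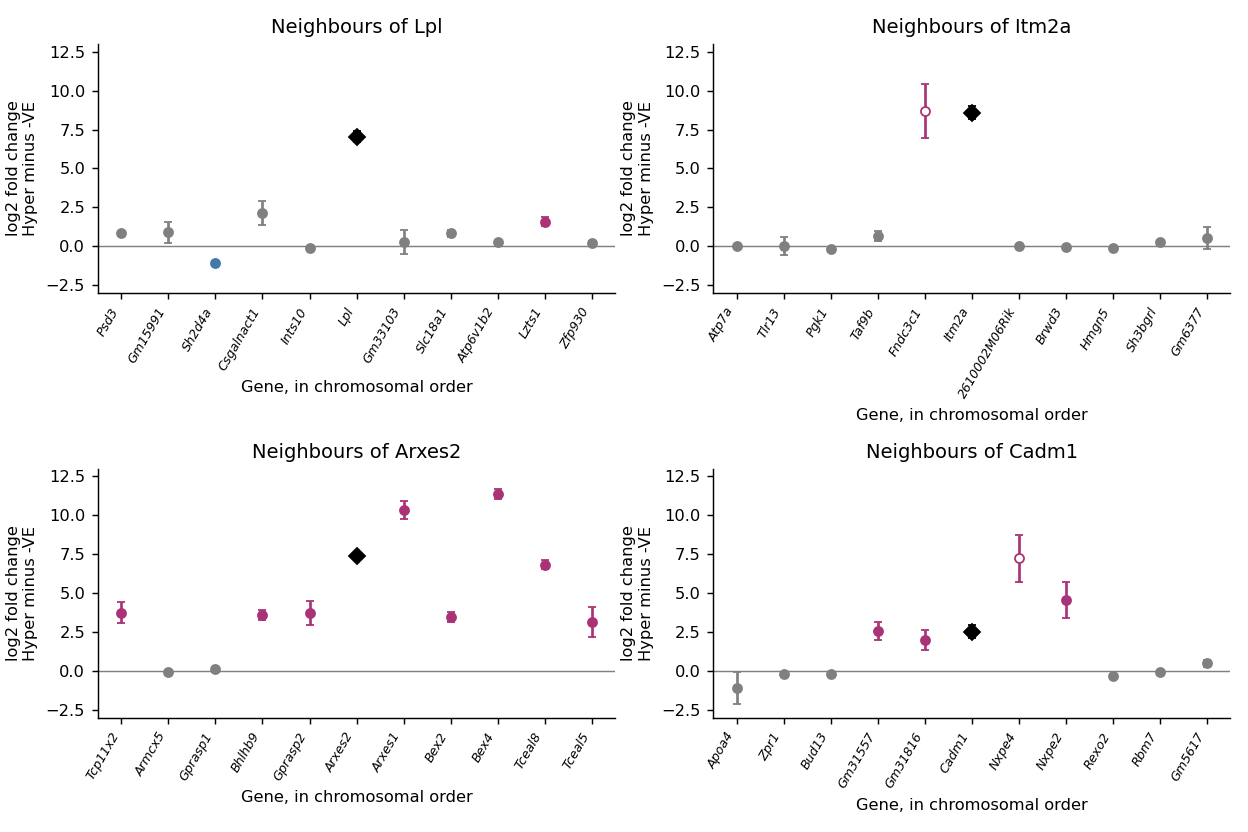
Fitted log2 fold change of Hyper- over -VE-organoids, with SE, for the 5 nearest tested genes on either side of each of the 4 genes, in chromosomal order, with the gene itself as a black diamond, genes called higher in purple, lower in blue and not called in grey. Around Arxes2 8 of 10 neighbours are called higher, against 1 around Itm2a, 1 around Lpl and 4 around Cadm1. Hollow points are genes with 0 UMIs in -VE-organoids, whose fitted value has no -VE count to rest on.

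Itm2b and Itm2c are the other genes of the Itm2 family. Itm2b did not pass (0.08, SE 0.11, adjusted p = 0.582). Itm2c rose by 1.07 (SE 0.09, adjusted p = 9.62e-05) in Hyper over -VE, from 22.5 to 51.8 CPM. Of 9 Itm2 family and BRICHOS genes, 5 were tested. Itm2a was chosen on the Hyper values and is left out of the count. Of the other 4, 1 was called higher, Itm2c, and 1 lower, the cartilage gene Cnmd (−1.78, adjusted p = 0.0471). Cnmd rests on 25 UMIs in -VE- and 10 in Hyper-organoids. With Itm2a counted, DESeq2 called 2 genes of this list against 3 by edgeR. The median without Itm2a was 0.13, and over all genes 16.1% were called higher and 2.51% lower.

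Cadm4, which encodes another adhesion molecule of the Cadm1 family, rose by 3.99 (SE 0.28, adjusted p = 4.43e-05), from 0.429 CPM in -VE- to 7.49 CPM in Hyper-organoids. Cadm2 and Cadm3 had too few UMIs to be tested, with 2 and 11 UMIs over the 3 Hyper libraries. Of 14 Cadm and nectin adhesion genes, 11 were tested. Cadm1 was chosen on the Hyper values and is left out of the count. Of the other 10, 1 was called higher, Cadm4, with a median of 0.06, against 16.1% of all genes called higher. In -VE over ENR 0 of the 11 were called by edgeR or DESeq2, and 3 had an unadjusted edgeR p under 0.05.

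The genes of proteins that act with lipoprotein lipase were set beside it. Of 19 genes of the lipoprotein lipase pathway 16 were tested. Lpl was chosen on the Hyper values and is left out of the count. Of the other 15, 1 was called higher in Hyper over -VE, Angptl4, and 1 lower, with a median of −0.2. Over all genes 16.1% were called higher and 2.51% lower. Angptl4, an inhibitor of the enzyme, rose by 1.08 (adjusted p = 0.0434). It is named here after its values were seen. Pcsk6, a protease that can cleave the enzyme, fell by 1.16 (adjusted p = 0.00232). In -VE over ENR the lipoprotein receptors Scarb1 (1.45, adjusted p = 0.00803) and Vldlr (1.11, adjusted p = 0.0201) rose, which were the 2 genes of the list that edgeR called. DESeq2 called 6 of the 16 there, and 10 had an unadjusted edgeR p under 0.05. No share over all genes is given for these counts, so nothing is read from them. Over all genes edgeR called 1.35% higher and 1.2% lower there. Gpihbp1, which carries the enzyme to the capillary surface, was too low to be tested.

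Lpl and the Arxes genes are known from adipocytes, so a list of 18 adipocyte genes was set beside them. Of the 12 tested, 0 were called in Hyper over -VE by edgeR or DESeq2, against 16.1% of all genes called higher and 2.51% lower by edgeR, 3 had an unadjusted edgeR p under 0.05, and the median was −0.09. Fabp4, Plin1, Plin4, Cfd, Adig and Lep were too low to be tested. In -VE over ENR, where 1.2% of genes were called lower, 1 of the list was called, Pck1, an enzyme of gluconeogenesis that enterocytes also use, which fell by 2.75 (adjusted p = 0.0337).

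The genes whose levels were most like those of the 4 were found over 45 sums of organoid cells, 1 for each class of at least 50 cells in each library. The sums share libraries and are not independent, so the correlations of log2 CPM are descriptions. For Lpl the closest were H2afy2 (Pearson r = 0.957), Enah (0.954) and Arxes2 (0.95). For Itm2a they were Mkx (0.985), Inha (0.978) and Epor (0.977). For Arxes2 they were Zfhx4 (0.968), Arxes1 (0.958) and Sgce (0.956). For Cadm1 they were Calca (0.916), Pdgfc (0.909) and Gja1 (0.907). Among the 4, Lpl and Arxes2 were closest (0.95), and Cadm1 was farthest from the others (0.794 to 0.863).

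The sums hold both Hyper and -VE libraries, so the way these genes were found favours genes higher in Hyper medium, and their fold changes are given with no test. The log2 fold changes of Hyper over -VE were 9.54 for Zfhx4, 9.21 for Sgce, 7.48 for H2afy2, 7.39 for Inha and 6.19 for Mkx. They were 5.17 for Calca and 4.69 for Pdgfc, the genes closest to Cadm1.

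The colonic crypts tell where the genes were counted in tissue that had not been in culture. Each group was 1 library, so there is no replicate check and no test, and intervals cover counting error only. Of the kept colonic cells, 291 and 533 had under 1500 genes, the minimum that the methods state, so shares of positive cells include shallow cells. Lpl had the highest level of the 4. It was at 16.5 CPM in normal crypts (95% exact interval 14.8 to 18.4) and at 19.1 CPM after DSS (17.7 to 20.7), in 17.4% and 15.6% of cells. The left-out barcodes of the same libraries held Lpl in 1.84% and 2.74%, at 4.89 and 6.80 CPM and medians of 4214 and 3758 UMIs. Arxes2 had 5 and 7 UMIs and Cadm1 12 and 26, so that both were below 1 CPM. Itm2a was at 1.41 and 2.07 CPM, on 28 and 67 UMIs.

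Of the 197 and 302 colonic cells with Lpl, 197 and 298 also held Epcam, the epithelial adhesion gene. Epcam was also counted in 34.4% and 61.6% of the cells of cluster 0, most of which held the T cell gene Cd3e, so Epcam alone does not mark an epithelial cell here. The cluster that the authors numbered 1 held the most, at 50.7 CPM in normal crypts and 64.5 CPM after DSS, in 66.3% and 68.6% of its 95 and 207 cells. All its cells held Epcam, while 2.1% and 0.97% held Ptprc. Cluster 6 held 35.0 and 38.1 CPM, in 39.1% and 38.2% of its 64 and 157 cells. In the DSS library cluster 18 held 11 UMIs of Lpl, or 63.8 CPM, of which 10 were in 2 cells with Col3a1, a collagen gene of fibroblasts, and 0 of its 3 cells with Lpl held Epcam.

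Colonic Itm2a was counted mostly in clusters 0 and 18. Clusters 1 and 6 held 0 UMIs of it in both libraries. Cluster 0 held 24 and 23 UMIs in 21 and 21 cells, of which 20 and 21 also held Cd3e, a subunit of the T cell receptor complex. In the DSS library cluster 18 held 37 UMIs, of which 32 were in 3 cells with Col3a1. Lpl was at 0 UMIs in cluster 0 of both libraries. Cells with at least 2 of the 4 genes numbered 1 in normal crypts and 8 after DSS.

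**Figure D5:**
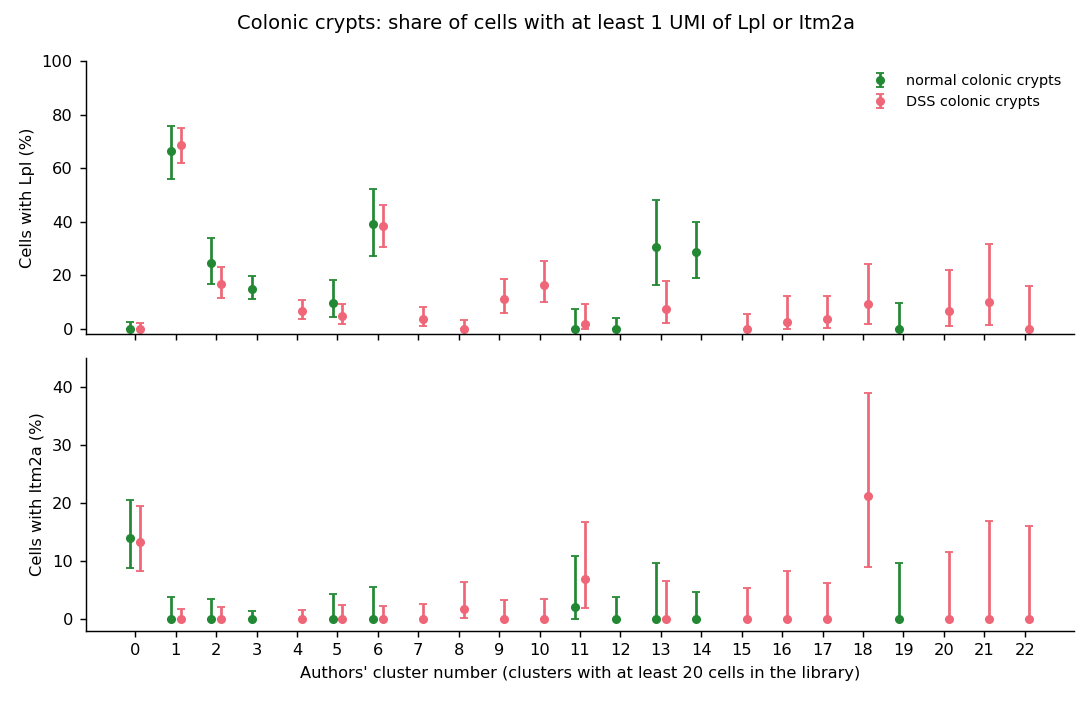
Share of cells with at least 1 UMI of Lpl or of Itm2a in the authors' clusters of the normal and DSS colonic libraries, for clusters of at least 20 cells in the library, with 95% exact binomial intervals. Lpl is highest in clusters 1 (66.3% and 68.6%) and 6, and Itm2a in cluster 18 of the DSS library and cluster 0 of both.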

How the data were processed

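The deposited values are UMI counts per gene and barcode, not normalized, which the authors made with Cell Ranger (3.0.0 in the submitters' processing notes) on mm10, with Seurat 3.1.4 named for later steps. A merged table holds the 25204 cells the authors kept, with a class for each (the deposited labels). Kept cells had as few as 501 genes, below the 1500 that the methods state. It was checked against the library matrices for the 4 genes and Arxes1, and 0 of 126020 counts differed. No doublet caller was run here.

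UMI counts were summed per gene and library. A single model over all 8 organoid libraries was fitted in R 4.3.3 with edgeR 4.0.16 (TMM factors, filterByExpr, glmQLFit and glmQLFTest). Benjamini-Hochberg adjustment was over all genes tested. A prior count of 2 was used for the log2 CPM of the correlations, not for the fitted fold changes. Every adjusted p of a gene comes from this test unless DESeq2 1.42.0 is named. All 4 genes passed the filter on low counts, Itm2a only through the Hyper libraries. On simulated counts of Hyper against -VE, 50 genes were changed at each fold. Of those changed by 2-, 4-, 8- and 16-fold, 28%, 88%, 98% and 98% were recovered, with 4 false calls among 15770 genes. In the data 16.1% of genes were called higher and 2.51% lower, so these rates need not hold there. Fold changes use TMM factors, while printed CPM values do not. Cells were thinned without replacement, and shallower cells left out (63, 68 and 113 in the Hyper libraries). Intervals cover counting error only.

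The members and the gene lists were chosen with earlier results of these data known. Named besides the members were their family genes, up to 4 called genes of each list by size of change, the 3 genes with the most similar levels and the called neighbours. Neighbours were taken in GENCODE M21 order. The alternatives were DESeq2, its size factors in edgeR, other filters on genes and cells, thinning, a block for the culture series and leaving out each library.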

Additional observations from a re-analysis of the deposited data

Results flagged for a closer look

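The barcodes that the authors left out of their kept cells were not used in the comparisons, and in the Hyper libraries (1712, 2234 and 1943 such barcodes) they carried all 4 genes above the level of the left-out barcodes of every ENR library. Lpl was at 10.12, 7.956 and 7.325 CPM in the left-out barcodes of Hyper libraries 1, 2 and 3, against at most 0.0384 CPM in those of ENR. Itm2a was at 6.47, 4.847 and 4.458 CPM, against at most 0.0463. Arxes2 was at 5.293, 11.16 and 7.165 CPM, against at most 0.0463. Cadm1 was at 23.88, 23.04 and 22.21 CPM, against at most 3.75. For each of the 4 genes these levels lay below those of the kept cells of the same library. The genes were chosen as low in ENR- and high in Hyper-organoids, and these barcodes are of the same libraries. That choice favours the direction seen here, so it is a description and no support.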

How the results depend on the processing

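The 4 genes were chosen on the Hyper and ENR values, so their values and calls under each setting are a description and no support. All 4 stayed higher in Hyper than in -VE under all 17 alternatives over all cells and all 10 in stem cells, a direction that their choice favours. Where 1 of the 2 -VE libraries is left out, the lone library is assumed to vary like the other groups. Over all cells the log2 fold changes ran from 6.54 to 7.68 for Lpl, 7.68 to 10.22 for Itm2a, 6.91 to 7.54 for Arxes2 and 2.31 to 2.65 for Cadm1. The numbers of genes called moved with the filter, since a minimum of 10 CPM in 2 libraries leaves fewer genes to test. They fell from 2985 to 528 in Hyper over -VE, from 3675 to 800 in Hyper over ENR and from 409 to 166 in -VE over ENR.

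The comparison of -VE with ENR was the least stable. Leaving out 1 library gave 96 to 519 genes called, and all barcodes gave 669. The log2 fold change of Lpl was 2.04 with DESeq2, 2.02 with no filter and 2.06 with all barcodes. Itm2a turned to −0.52 without -VE library 1 (range over libraries left out −0.52 to 2.01) and to −0.74 with thinned cells. Arxes2 fell to 1.19 with thinned cells and ranged from 2.20 to 2.69 with 1 library left out. Cadm1 ranged from 0.45 to 1.30, with the highest value without ENR library 3. The cause was not tested. In stem cells 70 genes were called, 140 with the replicate block, 39 thinned and 8 to 149 with a library left out. There Itm2a turned to −1.06 without -VE library 1 (range −1.06 to 1.64) and to −0.81 thinned. Cadm1 ranged from 0.32 to 1.16. In Hyper over ENR, Arxes2 moved to 8.09 thinned and Cadm1 to 3.84 without ENR library 3 (range 2.97 to 3.84).

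Deviations from the group means, over 16037 genes, correlated between libraries of the same culture series at 0.0617 to 0.436. Between libraries of different series and media they ran from −0.292 to 0.129. These ranges overlap and the labels state no pairing, so the main fit held no block for the series. The block changed no call of the 4 genes.

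Shares of positive Hyper cells follow depth by construction. Not thinned, thinned to 5000 UMIs and with at least 2 UMIs, the mean shares were 53.8%, 11.2% and 29.6% for Lpl, 52.2%, 11.4% and 27.5% for Itm2a, 58.4%, 10.5% and 28.1% for Arxes2 and 85.2%, 28.0% and 68.9% for Cadm1. The median joint ratio of the 6 pairs, averaged over the 3 libraries, was 1.06, 1.09 and 1.17 in the same order. Over all barcodes the colonic levels in normal and DSS crypts were 11.6 and 15.2 CPM for Lpl and 0.929 and 1.47 for Itm2a. Without cells holding Ptprc, Itm2a was at 0.317 and 1.22 CPM. In stem cells, 5 of the 13 tested genes of the lipoprotein lipase list were called in Hyper over -VE, 3 higher, with Lpl among them, and 2 lower, where 14.7% of all genes were called higher and 1.76% lower (3 of 16 over all cells). In -VE over ENR 1 was called (2 of 16 over all cells), where 0.23% of all genes were called higher. In -VE over ENR 0 genes of the adipocyte list and 0 of the Arxes list were called there by edgeR, with 3 and 1 at an unadjusted p under 0.05.

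The alternatives for chromosomal neighbours, and the count of genes that passed without the Hyper libraries, were chosen after seeing the data. Neighbours called higher numbered 2 for Lpl with DESeq2 and with the replicate block. Among neighbours that passed the filter without the Hyper libraries they numbered 1 for Lpl, 0 for Itm2a, 3 for Arxes2 and 0 for Cadm1. With 1 library left out they numbered 1 to 2 for Lpl, 0 to 1 for Itm2a, 7 to 8 for Arxes2 and 1 to 4 for Cadm1. With at most 30 UMIs of Lpl, Itm2a or Arxes2 in an ENR or -VE library, counting error limits what can be said of those media.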
